A study of Mus musculus with 32 samples.

Results

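Microglia were set against astrocytes at 3 months of age in mice of the TDP-43_Q331K genotype, gene by gene, by the rank of each gene within its own library. The microglia were 3 libraries of cells selected with Cd11b from cortices, and the astrocytes were 4 libraries of cells selected with ACSA2 from cortices and spinal cords. These 7 libraries are of 32 in the series, whose title concerns MYC and gliosis in amyotrophic lateral sclerosis. TDP-43 is an RNA-binding protein, encoded by Tardbp in the mouse, and Q331K is a substitution in it that is linked to this disease. Every library came from animals with the mutant genotype, and libraries without it were not analysed here. The promoter that drives the transgene, and whether a library is 1 animal or several pooled, are not given in the sources used here, so the spread between libraries may be technical.

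Microglia are the resident macrophages of the brain parenchyma. They survey the tissue, take up debris and dying cells, tag and remove synapses with complement, and depend on signalling through the CSF1 receptor. Astrocytes are glia of neuroectodermal origin that clear glutamate, GABA and potassium from the extracellular space, supply neurons with metabolites and lipids, and shape synapses through secreted and surface proteins. Both become reactive in amyotrophic lateral sclerosis, and many signals known from that state pass between them.

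The microglia libraries were made with a kit that reads the 3′ end of transcripts and the astrocyte libraries with a kit that reads whole transcripts and carries unique molecular identifiers, so cell type, kit and tissue cannot be told apart in any value that follows. Total counts were between 4145129 and 5548940 in microglia libraries and between 7604222 and 20763190 in astrocyte libraries. A library's counts were turned into percentiles over 21466 protein-coding genes found in both tables, from 0 for the lowest rank to 100 for the highest, with ties at their mean rank. Genes with a count of 0 were 43.4% to 47.4% of the ranked genes in microglia libraries and 21.7% to 25.9% in astrocyte libraries, so a gene that was not detected stands at percentile 21.7 to 23.7 in microglia and at 10.9 to 12.9 in astrocytes. A gene was called higher in a cell type where its lowest library there lay at least 20 percentile points above the highest library of the other type, and the distance between those nearest libraries is the gap, positive where microglia were higher. CPM below is a count scaled to the total of the ranked genes, in parts per 1000000. A count of 0 allows up to 0.818 to 1.04 CPM in a microglia library and up to 0.159 to 0.421 CPM in an astrocyte library, counting error only.

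Among 13284 genes tested, 1175 were called higher in microglia (8.85% of those tested) and 1628 higher in astrocytes (12.3%). Ranks of astrocyte TPM, which divide by transcript length, gave 1526 (11.5%) higher in microglia and 1846 (13.9%) higher in astrocytes, and 998 (7.51%) and 1364 (10.3%) were called on both scales. The order of genes was much alike within a type and far less alike between types, with Spearman correlations across genes of 0.932 to 0.946 between microglia libraries, 0.988 to 0.992 between astrocyte libraries and 0.424 to 0.455 between a microglia and an astrocyte library. The median difference over all tested genes, microglia minus astrocytes, was -2.14 points, with quartiles of -17.3 and 9.54. Without the size requirement, 4710 genes (35.5%) had every microglia library above every astrocyte library and 5362 (40.4%) the reverse. A limma fit of the percentiles called 9971 genes (75.1%, Benjamini-Hochberg threshold of 0.05), 35% of those tested higher in microglia and 40.1% higher in astrocytes. Every gene called by the gap was among them. The fit used the same percentiles of the same libraries as the gap, so this overlap is no support for the calls. Of the genes called higher in astrocytes, 701 had no count in any microglia library, and of those called higher in microglia, 29 had none in any astrocyte library. Such genes passed the filter on counts only through the group where they were high. Just inside the threshold were Zfp839, with a gap of 20.0047 points, and just outside it Galnt3, with 19.9884.

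**Figure D1:**
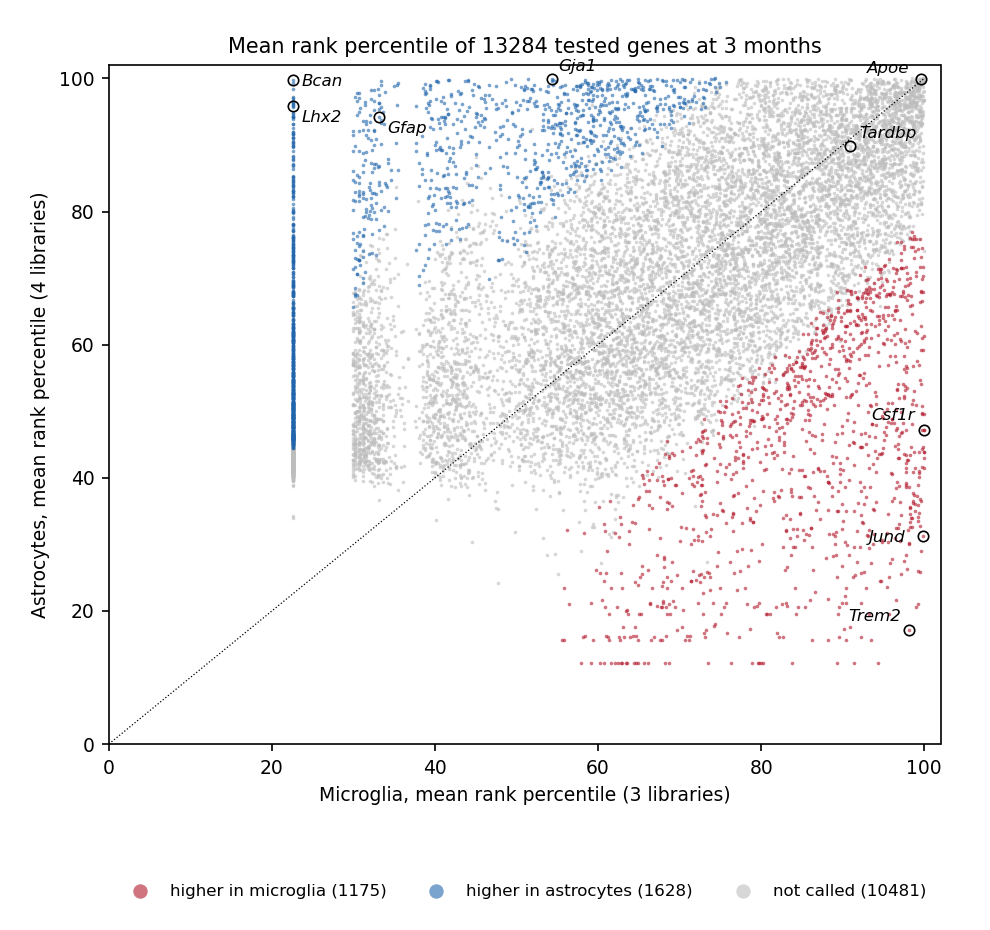
Mean rank percentile of each of 13284 tested genes in 3 microglia libraries (horizontal axis) and 4 astrocyte libraries (vertical axis), 1 point per gene, with called genes in colour and named genes circled. The 1175 genes called higher in microglia fill the lower right and the 1628 called higher in astrocytes the upper left, where the vertical band near percentile 22.6 holds genes with no count in microglia.

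The 12 largest gaps in favour of microglia, among calls kept with TPM ranks, were of genes that astrocyte libraries hardly held, several of them immune genes. Trem2, a lipid-sensing receptor of microglia, stood at percentiles 97.7, 98.6 and 98.2 in microglia, against 12.5, 12.5, 12.9 and 30.9 in astrocytes. All 3 microglia libraries were near the top, while 3 astrocyte libraries had no Trem2 count and the fourth had 3. The difference was 80.9 ± 4.93 points (limma estimate and SE, adjusted p = 4.89e-06), and the level was 432 ± 74.2 CPM in microglia (SD, n = 3). In the 3 astrocyte libraries without a count the fitted value is the percentile of a 0, so the SE measures Trem2 only in part. Trem2 was also named for the size of its gap, so the p-value is no further support. Ccl4, a chemokine that draws in leukocytes, had 3045, 2310 and 2784 counts in microglia, against 1, 0, 0 and 3 in astrocytes. Alox5ap, the partner of 5-lipoxygenase in leukotriene synthesis, had 2614, 1816 and 1685 counts in microglia, against 1, 0, 0 and 2 in astrocytes. Capn3, a calpain protease, had 3421, 2374 and 2268 counts in microglia, against 1, 2, 0 and 3 in astrocytes. Was, an actin regulator of blood cells, Ms4a6b, a membrane protein of myeloid cells, Slfn8 of the Schlafen family and Nlrp1b, an inflammasome sensor, completed the immune genes of this group. Slfn8 had 432, 524 and 452 counts in microglia, against 0, 0, 0 and 1 in astrocytes.

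The widest gap of all kept calls was that of Fam71a, at percentiles 94.0, 93.9 and 95.3 in microglia, against 12.5, 12.5, 12.9 and 10.9 in astrocytes, with 596, 468 and 580 counts in microglia and none in any astrocyte library. In the GENCODE annotation Fam71a lies 5478 bases from Atf3 on the same strand, beyond the 3′ end of Atf3. Atf3, a stress-induced transcription factor, was itself called, at 3581 CPM in microglia and 5.28 CPM in astrocytes. Several of these genes, at or near 0 in sorted astrocytes, had counts in the primary astrocyte cultures of the series. Trem2 had 1468, 1991 and 3433 counts in vehicle-treated cultures, and Slfn8 had 192, 284 and 675. The same cultures held the microglia markers Csf1r (10015, 11222 and 19095 counts) and Cx3cr1 (5728, 6285 and 10794). Which cells there carry Trem2 and Slfn8 was not tested. Jund, an AP-1 transcription factor, had 8980, 8073 and 8096 counts in microglia, against 3, 2, 2 and 1 in sorted astrocytes, but 7596, 9216 and 6495 in those cultures. An antisense gene covers 52.6% of Jund, another gene on the same strand 86.3% of Ccdc22, and an antisense gene 36.9% of Arhgap22. Cultures held 560 to 681 counts of Ccdc22 and 671 to 963 of Arhgap22. The part of such overlap in these gaps was not tested.

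The 12 largest gaps in favour of astrocytes, among calls kept with TPM ranks, all belonged to genes with no count in any microglia library. Bcan, the perineuronal matrix proteoglycan brevican, had 15651, 13564, 10441 and 23787 counts in astrocytes, at percentiles of 99.7 to 99.8. The difference was -77.2 ± 1.25 points (limma estimate and SE, adjusted p = 1.5e-07). Its microglia values are the percentile of a 0, set by how many genes were undetected, so on that side the SE does not measure Bcan. Tril, an accessory protein of toll-like receptor signalling, had 7287, 5372, 5250 and 8892 counts in astrocytes, and Grin2c, an NMDA receptor subunit, had 3778, 3294, 2285 and 6379. Aldh1l1, a folate enzyme widely used as an astrocyte marker, had 2298, 1759, 1644 and 2990 counts in astrocytes, and Gabrg1, a GABA-A receptor subunit, had 2229, 1618, 1492 and 2842. The others were Slitrk2, a synaptic adhesion protein, Sorcs2, a sorting receptor, Scara3, a scavenger receptor, Csdc2, an RNA-binding protein, Caskin2, a scaffold protein, Ogdhl, a mitochondrial dehydrogenase subunit, and Gpld1, a phospholipase that releases GPI-anchored proteins. Gpld1 and Tril overlap other genes on the opposite strand over 45.5% and 21.4% of their length. The smallest gap of these 12 genes was 69.9 points in size.

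The antigens used for selection followed the labels and are no finding. Itgam, which encodes Cd11b, stood at percentiles 99.6, 99.4 and 99.6 in microglia, against 39.0, 28.0, 33.2 and 30.9 in astrocytes. Atp1b2, the sodium pump subunit that ACSA2 recognises, stood at 44.0, 57.3 and 53.0 in microglia, and at 99.9 in each astrocyte library. The annotation has another gene on the same strand over 68.7% of Itgam.

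Of 28 homeostatic microglia markers, 27 were called higher in microglia and none higher in astrocytes, with median percentiles of 99.2 in microglia and 39.1 in astrocytes. Csf1r, the receptor on which microglia depend for survival, had 4110 ± 249 CPM in microglia (SD, n = 3) and 3.66 ± 0.695 CPM in astrocytes (SD, n = 4). Cx3cr1, the fractalkine receptor, was at percentile 100 in every microglia library, against 45.7, 42.6, 43.7 and 43.7 in astrocytes. The marker that was not called was Sall1, a transcription factor that holds microglial identity, at 98.2, 98.6 and 98.1 in microglia and at 96.3, 95.5, 96.2 and 97.1 in astrocytes. Of 30 astrocyte markers, 23 were called higher in astrocytes and none higher in microglia, with medians of 59.0 in microglia and 99.6 in astrocytes. Gja1, the main gap junction protein of astrocytes, had 4.07 ± 3.26 CPM in microglia (SD, n = 3) and 2873 ± 526 CPM in astrocytes (SD, n = 4). Uncalled markers included genes at the top of the scale in astrocytes that were also well detected in microglia. Examples chosen after their values were seen are Glul, glutamine synthetase, at 1419 CPM in microglia and 6450 CPM in astrocytes, and Slc1a3, a glutamate transporter, at 137 CPM in microglia and 4176 CPM in astrocytes.

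**Figure D2:**
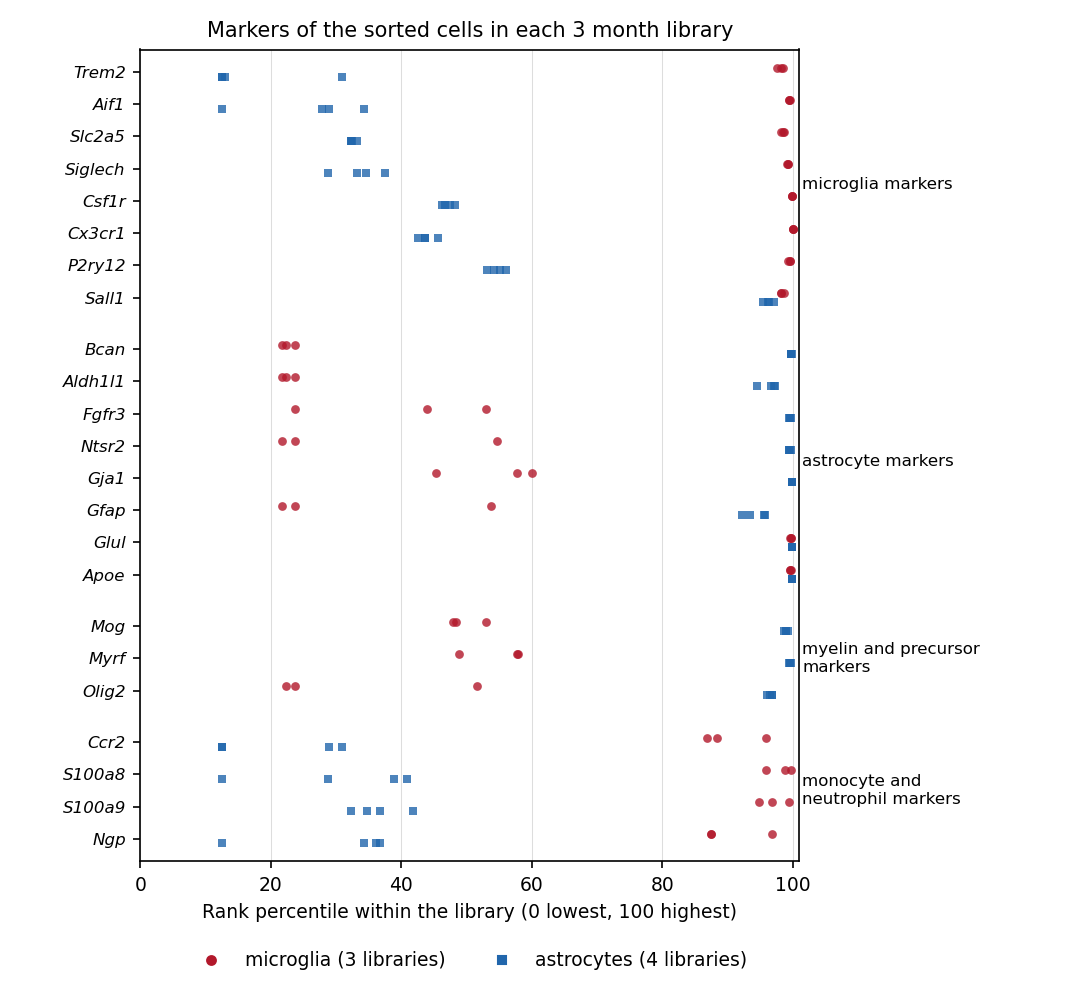
Rank percentile (0 lowest, 100 highest) of cell type markers in each 3-month library, with circles for 3 microglia libraries and squares for 4 astrocyte libraries. Trem2 lies at 97.7 to 98.6 in microglia and at 12.5 to 30.9 in astrocytes, while Sall1, Glul and Apoe lie near the top of the scale in both.

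Markers of some other cells differed between the groups too. Oligodendrocyte myelin markers took 0.104%, 0.15% and 0.144% of the counts in microglia libraries, against 3.59%, 2.79%, 3.53% and 4.31% in astrocyte libraries, and 10.2% to 12.7% in the oligodendrocyte lineage libraries of the series. Of 15 such markers, 6 were called higher in astrocytes. Mog, a myelin surface protein, was among them, at percentiles 48.4, 47.9 and 53.0 in microglia, against 99.0, 98.7, 99.0 and 99.3 in astrocytes. Of 10 oligodendrocyte precursor markers, 5 were called higher in astrocytes, Olig2 among them. Called higher in astrocytes were also Thy1 and Npy of 13 neuronal markers, Foxj1, Ccdc153 and Pifo of 9 ependymal markers, Emcn of 15 endothelial markers and Pdgfrb of 12 mural and fibroblast markers. Over all tested genes that share was 12.3%. The neuronal, endothelial and mural shares were near or below it and are no result on those cells. Of 13 listed monocyte and neutrophil markers 11 passed the filter on counts, and all 11 were called higher in microglia. So were the 9 tested border macrophage markers, of 11 listed. Microglia libraries alone can pass a gene through that filter, so these full counts are no support for a difference. The monocyte and neutrophil markers took 0.371%, 0.119% and 0.0675% of the counts in microglia, against 0.000154% to 0.000375% in astrocytes. S100a8, an abundant neutrophil protein, had 5526, 1647 and 676 counts in microglia, against 7, 0, 9 and 2 in astrocytes. Ccr2, the receptor that brings monocytes into tissue, averaged percentile 90.4 in microglia and 21.2 in astrocytes. Choroid plexus markers had no member called, and took 0.0438% to 0.376% of the counts in microglia and 0.0241% to 0.152% in astrocytes. Of 13 listed lymphocyte markers 1 passed the filter, the B cell gene Ms4a1, through its microglia counts alone, and it was called higher in microglia. In bulk libraries fewer cells of a type and less RNA per cell cannot be told apart, and the part of these other cells in the gaps below was not tested. Of the 1175 genes higher in microglia than in astrocytes, 877 also cleared the same gap over the 3-month oligodendrocyte lineage libraries. The share of all tested genes that cleared it is not given here, so this count is no support for the calls.

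Fc receptors and the signalling chain behind immunoreceptor tyrosine-based activation motifs (ITAMs) had 18 listed members. Of these, 17 were tested and all 17 were called higher in microglia, beside 8.85% of all tested genes. Microglia libraries alone can pass a gene through the filter on counts, as for Btk, Ptpn6 and Blnk, so the full count is no support. The median percentile of tested members was 94.7 in microglia and 32.6 in astrocytes. Their median difference was 62.7 points, or 61.1 with the untested member, beside -2.14 over all tested genes. Btk, a tyrosine kinase downstream of these receptors, stood at 89.4, 91.8 and 89.9 in microglia, against 12.5, 12.5, 12.9 and 24.6 in astrocytes. Ptpn6, the phosphatase SHP-1 that damps the same signals, had a gap of 63.4 points, and Blnk, an adaptor for Btk, had one of 62.1. Tyrobp, the ITAM adaptor of TREM2, had a gap of 53.2 points.

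Spi1, which encodes PU.1, the transcription factor that directs myeloid differentiation, stood at percentiles 96.6, 97.1 and 96.1 in microglia, against 12.5, 28.0, 12.9 and 33.4 in astrocytes. The difference was 74.9 ± 5.58 points (limma estimate and SE, adjusted p = 1.29e-05). Astrocyte libraries had 0, 1, 0 and 5 counts of Spi1, and a 0 enters that fit only as the percentile of a 0. The start-site windows of called homeostatic and Fc receptor genes were searched for the PU.1 core GAGGAAGT on both strands. A RefSeq window, 250 bases before to 50 after the start site on GRCm38.p6, was found for 33 of 42 such genes (78.6%). As this is under 80%, a comparison of that set with other genes is void, and the letters below describe these windows only. Over the whole table, 3.69% of 27025 genes had the core in a window. The windows of Vav1 (chr17:57278850-57279149), a signal transducer of ITAM receptors, Fcgr4 (chr1:171018676-171018975), an activating Fc receptor, Ctss (chr3:95526536-95526835), the lysosomal protease cathepsin S, and Inpp5d (chr1:87620062-87620361), the lipid phosphatase SHIP1, are shown because in them the core begins within 24 bases before the start site of a gene with a large gap. Each is on the plus strand, 5′ to 3′, with the core or its reverse complement ACTTCCTC in capitals.
Vav1: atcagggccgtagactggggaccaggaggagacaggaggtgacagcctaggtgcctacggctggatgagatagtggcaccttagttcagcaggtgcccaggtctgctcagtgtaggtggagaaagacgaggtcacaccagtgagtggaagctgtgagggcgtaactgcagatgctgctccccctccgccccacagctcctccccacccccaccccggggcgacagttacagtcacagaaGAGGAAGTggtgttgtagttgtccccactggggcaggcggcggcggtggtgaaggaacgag
Fcgr4: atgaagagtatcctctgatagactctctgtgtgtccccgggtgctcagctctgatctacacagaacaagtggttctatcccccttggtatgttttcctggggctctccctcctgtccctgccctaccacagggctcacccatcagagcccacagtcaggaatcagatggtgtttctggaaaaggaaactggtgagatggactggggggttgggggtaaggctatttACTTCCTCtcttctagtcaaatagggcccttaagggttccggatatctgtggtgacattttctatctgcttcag
Ctss: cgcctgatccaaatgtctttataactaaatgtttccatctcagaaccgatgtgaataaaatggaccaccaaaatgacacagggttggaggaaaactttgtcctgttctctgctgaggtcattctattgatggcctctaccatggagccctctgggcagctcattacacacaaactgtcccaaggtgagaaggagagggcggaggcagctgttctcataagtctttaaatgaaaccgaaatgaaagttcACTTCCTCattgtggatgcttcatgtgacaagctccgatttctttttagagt
Inpp5d: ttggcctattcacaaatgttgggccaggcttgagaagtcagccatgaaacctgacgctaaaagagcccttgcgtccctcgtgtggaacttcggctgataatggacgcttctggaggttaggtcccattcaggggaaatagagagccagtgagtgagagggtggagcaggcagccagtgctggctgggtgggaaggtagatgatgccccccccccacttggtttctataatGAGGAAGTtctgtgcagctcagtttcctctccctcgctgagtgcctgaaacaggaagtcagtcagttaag
The core begins 11 bases before the start site in Vav1, 24 in Fcgr4, 2 in Ctss and 20 in Inpp5d. A match is a run of letters and not a measured binding site. The gaps of these genes, picked after their values were seen, were 60.9 points for Vav1, 57.1 for Fcgr4, 55.3 for Ctss and 52.7 for Inpp5d.

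Complement genes were higher in microglia in 11 of 19 tested members, beside 8.85% of all tested genes, and none was called higher in astrocytes. The 3 chains of C1q, which starts the classical pathway and tags synapses, were among them. C1qa stood at 99.9, 99.9 and 100 in microglia, against 41.2, 42.1, 41.4 and 40.9 in astrocytes. C3ar1, the receptor for the C3a fragment, stood at 97.8, 98.2 and 98.2 in microglia, against 34.6, 28.0, 35.3 and 30.9 in astrocytes. The components that follow C1q, which are C2, C3 and C4b, were not called. Another gene on the same strand covers 42.8% of C2, and its part was not tested. C3 stood at 75.6, 56.7 and 53.0 in microglia and at 49.1, 56.7, 56.8 and 54.9 in astrocytes, so the groups overlap. C4b had a gap of -11.8 points, with every astrocyte library above every microglia library. Clusterin (Clu), an inhibitor of the terminal complex, had a gap of -18.3 points, at 32.9 CPM in microglia and 4228 CPM in astrocytes.

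Toll-like and other pattern receptors were called higher in microglia in 12 of 16 tested members, beside 8.85% of all tested genes. Tlr7, an endosomal sensor of single-stranded RNA, stood at 88.0, 86.3 and 84.1 in microglia, against 37.2, 28.0, 28.9 and 35.5 in astrocytes. Tlr13, which senses bacterial ribosomal RNA in the mouse, had a gap of 47.5 points. The exception in direction, chosen after its values were seen, was Tlr3, the sensor of double-stranded RNA, at 78.3, 83.6 and 85.8 in microglia, against 97.3, 97.4, 96.9 and 95.2 in astrocytes. Its gap of -9.36 points did not reach the threshold.

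NADPH oxidase and iron genes had 9 of 16 tested members higher in microglia, beside 8.85% of all tested genes, and none higher in astrocytes. Cybb, the catalytic subunit of the phagocyte oxidase, had a gap of 58.9 points, and its cytosolic organiser Ncf1 had one of 62.7. Chemokines and their receptors had 13 of 18 tested members higher in microglia and 2 higher in astrocytes, beside 8.85% and 12.3% of all tested genes. Ccl3, a chemokine close to Ccl4, averaged 95.4 in microglia and 23.6 in astrocytes. Cxcl14, a chemokine made in epithelia and brain, was the clearest exception, at 45.2, 23.7 and 49.2 in microglia, against 99.2, 99.3, 99.2 and 98.5 in astrocytes.

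Purine signalling was split between the cell types. Of 17 tested members, 6 were higher in microglia and 4 in astrocytes, beside 8.85% and 12.3% of all tested genes. The median difference was -11.5 points, or 9.36 where 50 counts were required in place of 10. P2ry12, the ADP receptor that guides microglial processes, averaged percentile 99.5 in microglia and 54.6 in astrocytes, and P2ry6, the UDP receptor tied to phagocytosis, averaged 95.5 in microglia and 31.7 in astrocytes. On the other side were the A1 adenosine receptor Adora1, at 54.4 in microglia and 92.9 in astrocytes, and the ectonucleotidase Entpd2, at 0 CPM in microglia and 60.6 CPM in astrocytes. Another gene on the same strand covers 28.8% of Entpd2, and its part was not tested. Adk, adenosine kinase, averaged 62.7 in microglia and 92.9 in astrocytes, and this call did not hold with TPM ranks.

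Antigen presentation genes were higher in microglia in 11 of 17 tested members, beside 8.85% of all tested genes. H2-Aa, a chain of MHC class II, stood at 94.2, 87.3 and 89.2 in microglia, against 32.4, 38.4, 12.9 and 37.9 in astrocytes. Cd86, a costimulatory ligand, had a gap of 59.0 points. Monocyte and neutrophil markers, up to 0.371% of the counts in microglia and 0.000375% in astrocytes, lay on the same side as these genes and the chemokine receptors, and their part was not tested. The invariant MHC class I chain B2m, with a gap of 10.9 points, was not called, and its level was 2374 CPM in microglia and 78.4 CPM in astrocytes. Interferon response genes were called in 6 of 18 tested members, all higher in microglia, beside 8.85% of all tested genes. Irf9, a part of the interferon-activated complex ISGF3, averaged 95.1 in microglia and 60.0 in astrocytes. Ifit3, an induced antiviral protein, averaged 64.0 in microglia and 53.1 in astrocytes with overlapping libraries.

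**Figure D3:**
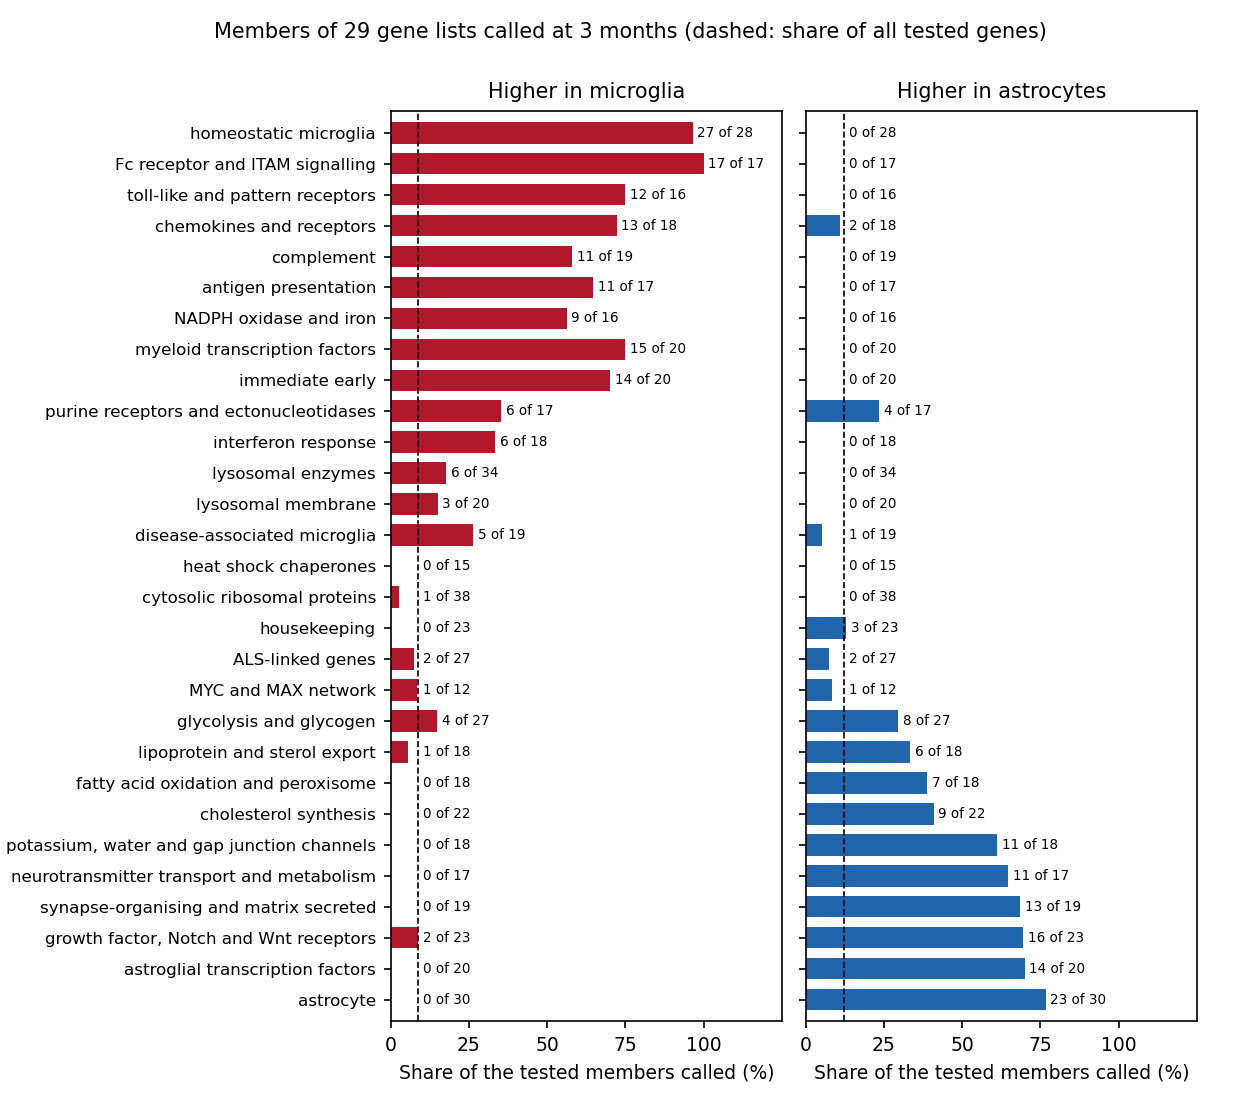
Share of the tested members of 29 gene lists called higher in microglia (left) and higher in astrocytes (right), with the counts beside the bars and the share of all tested genes as a dashed line, 8.85% on the left and 12.3% on the right. Fc receptor and ITAM genes are called in 17 of 17 members on the microglial side, and ALS-linked genes lie below the dashed line on both sides.

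Transcription factors separated the cells in both directions. Of 20 tested myeloid factors, 15 were higher in microglia, beside 8.85% of all tested genes, and none in astrocytes. Irf8, which acts with PU.1, averaged 99.3 in microglia and 35.9 in astrocytes, and Ikzf1, a lymphoid and myeloid zinc finger factor, averaged 99.6 in microglia and 29.0 in astrocytes. Of 20 tested astroglial factors, 14 were higher in astrocytes, beside 12.3% of all tested genes, and none in microglia. Astrocyte libraries alone can also pass a gene through the filter on counts, here and in the lists below. Lhx2, a LIM homeobox factor, had no count in microglia and 2178, 1614, 1602 and 2555 counts in astrocytes, a difference of -73.3 ± 1.58 points (limma estimate and SE, adjusted p = 1.54e-07). As for Bcan, the microglia side of that fit holds only the percentile of a 0. Gli2, a mediator of Hedgehog signalling, Pax6, a factor of neural progenitors, and Rorb, a nuclear receptor, had gaps of -60.3, -58.3 and -49.4 points. Nfia, which starts astrocyte differentiation in the embryo, was at the same height in both, at 98.2, 98.8 and 98.6 in microglia and at 98.1, 98.3, 98.1 and 97.6 in astrocytes.

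Immediate early genes, which many cells induce within minutes of a stimulus, were higher in microglia in 14 of 20 tested members, beside 8.85% of all tested genes. Of these 14, 8 were also called with TPM ranks, by which 9 were higher in microglia and 1, Ccn1, higher in astrocytes. Immediate early genes took 2.65%, 2.3% and 2.34% of the counts in microglia, against 0.0598% to 0.0724% in astrocytes. Atf3 had a gap of 47.5 points, Ier3, an early response gene tied to survival, one of 53.3, and Egr3, a zinc finger factor, one of 45.8. Egr1 stood at 99.9 in each microglia library, against 86.5, 89.8, 89.0 and 81.4 in astrocytes, a gap of 10.1 points that was not called. Heat shock chaperones, another group known to move with stress, had no member called of 15. Of all tested genes 8.85% were higher in microglia and 12.3% in astrocytes. The chaperones had median percentiles of 91.6 in microglia and 90.3 in astrocytes, where the scale leaves little room for a call. Their median difference was 0.342 points by counts and -0.422 with TPM ranks. They took 0.791% to 1.11% of the counts in microglia and 0.417% to 0.767% in astrocytes.

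Lysosomal enzymes took 2.2% to 2.61% of the counts in microglia and 0.488% to 0.544% in astrocytes, and lysosomal membrane proteins took 0.822% to 0.915% in microglia and 0.41% to 0.453% in astrocytes. By rank most of them stood high in both, where the scale leaves little room for a call. Of 34 tested lysosomal enzymes 6 were higher in microglia and none in astrocytes, with a median difference of 3.89 points, and of 20 membrane proteins 3 were higher in microglia, with a median of -0.591. The share of all tested genes higher in microglia was 8.85%. Cathepsin S stood at 100 in each microglia library, against 43.4, 42.1, 41.9 and 44.7 in astrocytes, and Ctsc, an activator of serine proteases, averaged 97.6 in microglia and 58.3 in astrocytes. Hexa, a subunit of β-hexosaminidase, was not called, at 95.3, 95.2 and 93.8 in microglia, against 84.2, 83.8, 85.0 and 82.7 in astrocytes. Lamp1, a general lysosomal membrane protein chosen after its values were seen, averaged 99.3 in microglia and 99.6 in astrocytes.

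Genes of disease-associated microglia, a state described around plaques and in degeneration, divided 5 higher in microglia and 1 higher in astrocytes of 19 tested, with a median difference of 3.23 points. The shares of all tested genes were 8.85% and 12.3%. Lpl, lipoprotein lipase, stood at 80.7, 95.2 and 88.6 in microglia, against 32.4, 46.3, 38.7 and 40.4 in astrocytes, and Itgax, which encodes CD11c, averaged 78.6 in microglia and 17.2 in astrocytes. Axl, a receptor for apoptotic cells and the exception, stood at 72.3, 71.1 and 64.4 in microglia, against 96.5, 96.8, 96.5 and 94.0 in astrocytes. Apoe, the lipid carrier, was among the highest genes of both, at 1341 ± 343 CPM in microglia (SD, n = 3) and 5410 ± 969 CPM in astrocytes (SD, n = 4), and its percentiles of 99.6 to 99.8 in microglia and 99.9 to 100 in astrocytes leave no room for a call.

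Genes for the uptake and turnover of neurotransmitters marked the astrocyte side. Of 17 tested members, 11 were higher in astrocytes, beside 12.3% of all tested genes, and none in microglia, with a median difference of -38.9 points. The GABA transporter Slc6a11 averaged 44.1 in microglia and 99.8 in astrocytes. Slc38a3, which exports glutamine towards neurons, had a gap of -47.9 points, and Gldc, of the glycine cleavage system, one of -41.0. Potassium, water and gap junction channels had 11 of 18 tested members higher in astrocytes, beside the same 12.3%, and none in microglia, with a median of -37.1 points. Kcnj10, the inward rectifier that clears potassium, averaged 61.6 in microglia and 99.8 in astrocytes, and Aqp4, the water channel of endfeet, averaged 62.9 in microglia and 99.6 in astrocytes.

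Cholesterol synthesis had 9 of 22 tested enzymes higher in astrocytes, beside 12.3% of all tested genes, and none in microglia, with a median difference of -22.9 points. Fdft1, squalene synthase, stood at 49.3, 23.7 and 45.3 in microglia, against 96.5, 96.7, 97.0 and 96.1 in astrocytes. The later enzymes Sqle and Dhcr7 had gaps of -33.5 and -35.0 points. Of 18 lipoprotein and sterol export genes, 6 were higher in astrocytes and 1, Lpl, in microglia, beside 12.3% and 8.85% of all tested genes. Lcat, which esterifies cholesterol on lipoproteins, had no count in microglia and stood at 94.4, 95.5, 94.6 and 92.2 in astrocytes. The oligodendrocyte lineage libraries, whose myelin markers took 2.79% to 4.31% of the counts in astrocyte libraries, held Fdft1 at 96.1 and Sqle at 95.8 on average, and the part of those cells in these calls was not tested. The export pump Abca1 was close in both, at an average of 94.7 in microglia and 97.9 in astrocytes.

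Genes of energy metabolism were called in both directions. Of 27 tested glycolysis and glycogen genes, 4 were higher in microglia and 8 in astrocytes, beside 8.85% and 12.3% of all tested genes. Microglia were higher in Hk2, a hexokinase, at 99.4, 99.3 and 99.2 in microglia, against 46.7, 43.0, 41.9 and 43.7 in astrocytes. They were also higher in Hk3, another hexokinase, in the transporter Slc2a5 and in Slc16a3, a lactate exporter, with gaps of 37.1, 65.0 and 44.6 points. Hk1 was not called, at 80.5, 77.2 and 69.5 in microglia, against 94.3, 95.8, 94.8 and 92.5 in astrocytes. Astrocytes were higher in Aldoc, the brain aldolase, with a gap of -25.6 points. Pgk1 and Gapdh were called higher in astrocytes too, with 0, 0 and 0 counts of Pgk1 and 12, 18 and 8 of Gapdh in microglia, and both have near-identical copies elsewhere in the genome, so these 2 calls are uncertain. Fatty acid oxidation and peroxisome genes had 7 of 18 tested members higher in astrocytes, beside 12.3% of all tested genes. Among them were Ppara, a lipid-sensing nuclear receptor, and Acsl6, which activates long fatty acids.

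Proteins that organise synapses or form the matrix had 13 of 19 tested members higher in astrocytes, beside 12.3% of all tested genes, and none in microglia, with a median of -41.3 points. Megf10, a receptor with which astrocytes engulf synapses, stood at 45.2, 23.7 and 46.7 in microglia, against 98.5, 98.4, 98.6 and 98.5 in astrocytes. Mertk, the partner receptor in that process, was not called, with a gap of 0.881 points and no overlap (limma adjusted p = 0.00235). It stood at 99.9 in each microglia library and at 98.8, 99.0, 98.8 and 98.2 in astrocytes, and its level was 3137 ± 316 CPM in microglia (SD, n = 3) and 442 ± 68.1 CPM in astrocytes (SD, n = 4). Receptors for growth factors, Notch and Wnt ligands, with the adrenergic and other receptors listed beside them, had 16 of 23 tested members higher in astrocytes and 2 in microglia. The shares of all tested genes were 12.3% and 8.85%. Fgfr3, an FGF receptor, averaged 40.2 in microglia and 99.6 in astrocytes, and Egfr averaged 31.4 in microglia and 96.4 in astrocytes. Of the exceptions, the adrenergic receptor Adrb1 stood at 96.0, 96.0 and 93.5 in microglia, against 63.2, 62.9, 63.4 and 59.3 in astrocytes, while the α1A receptor Adra1a had no count in microglia and averaged 71.9 in astrocytes.

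A list of ligands and receptors described between these cells had 16 of 37 tested members higher in microglia and 2 in astrocytes, beside 8.85% and 12.3% of all tested genes. Il33, a nuclear alarmin released on damage, stood at 53.0, 63.6 and 61.4 in microglia, against 99.2, 99.0, 99.1 and 99.2 in astrocytes, a difference of -39.8 ± 2.41 points (limma estimate and SE, adjusted p = 4.72e-06). Its receptor Il1rl1 stood at 73.7, 61.4 and 70.2 in microglia, against 27.9, 12.5, 28.9 and 24.6 in astrocytes, a difference of 45.0 ± 4.82 points (adjusted p = 9.59e-05, same limma fit). Ligand and receptor thus lay on opposite sides, with no overlap of libraries in either. Il33 averaged 99.4 in the oligodendrocyte lineage libraries, whose myelin markers the astrocyte libraries also held, and the part of those cells in its level was not tested. Csf1, the ligand of Csf1r, stood at 75.7, 83.7 and 83.6 in microglia, against 92.5, 91.9, 92.2 and 93.1 in astrocytes, without reaching the threshold. The fractalkine gene Cx3cl1 had counts in 1 of 3 microglia libraries and averaged 65.5 in astrocytes, with a gap of -9.25 points. Cd200r1, the receptor for the inhibitory ligand CD200, had a gap of 36.6 points, and Cd200 one of -4.4.

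**Figure D4:**
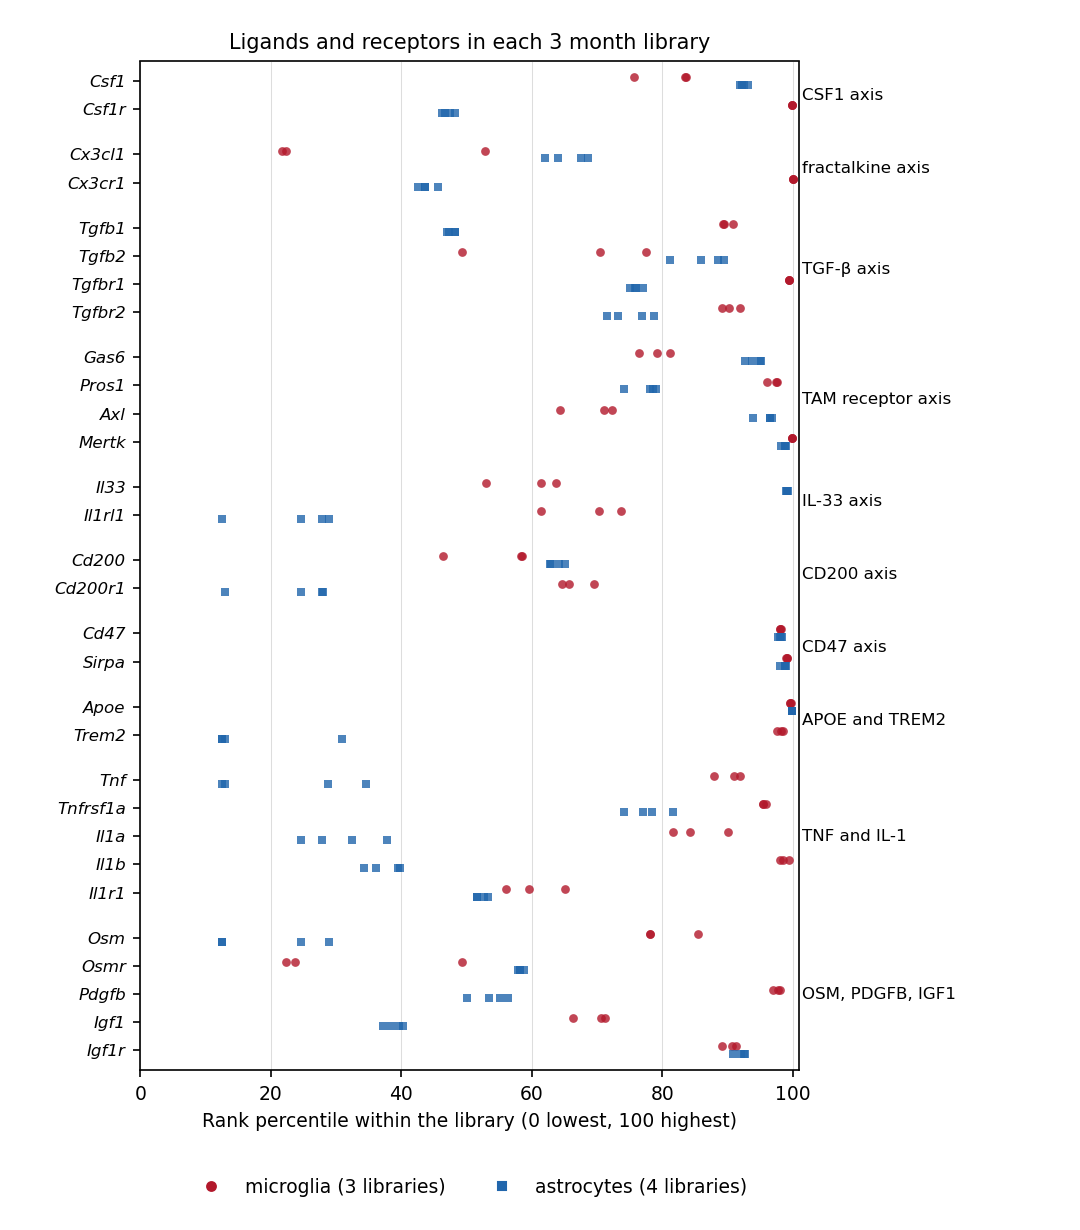
Rank percentile (0 lowest, 100 highest) of ligands and receptors in each 3-month library, with circles for 3 microglia libraries and squares for 4 astrocyte libraries. Il33 lies at 99.0 to 99.2 in astrocytes and its receptor Il1rl1 at 61.4 to 73.7 in microglia, while Cd47 and Sirpa lie at the top in both.

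Of the cytokines in that list, Tnf, Il1a, Il1b and Osm were called higher in microglia, Il33 was called higher in astrocytes, and Il18 and Il34 overlapped. Il1b stood at 99.5, 98.0 and 98.6 in microglia, against 36.1, 39.8, 39.5 and 34.2 in astrocytes. The receptors Tnfrsf1a, Il1r1 and Osmr were not called. The TNF receptor Tnfrsf1a had a gap of 13.8 points, the IL-1 receptor Il1r1 one of 2.73, and the oncostatin receptor Osmr one of -8.53. Transforming growth factors were divided. Tgfb1 stood at 89.4, 90.9 and 89.5 in microglia, against 48.3, 48.2, 47.4 and 47.0 in astrocytes, whereas Tgfb2 averaged 65.7 in microglia and 86.3 in astrocytes and Tgfb3 30.6 in microglia and 61.8 in astrocytes, with no call for either. The receptor subunit Tgfbr1 was higher in microglia, with a gap of 22.4 points. Of the bridging ligands for MERTK and AXL, Gas6 averaged 78.9 in microglia and 94.1 in astrocytes, and Pros1 averaged 97.0 in microglia and 77.5 in astrocytes, both without a call. The signal Cd47, which restrains phagocytosis, and its receptor Sirpa overlapped between the groups.

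A list of related genes, often of a pair or family in which one is known from each cell type, had 11 of 37 tested members higher in microglia and 5 in astrocytes. The shares of all tested genes were 8.85% and 12.3%. The fatty acid binding proteins Fabp5 and Fabp7 were higher in astrocytes, with gaps of -32.9 and -34.4 points. Of the prostaglandin D synthases, the haematopoietic Hpgds stood at 99.8, 99.8 and 99.9 in microglia, against 44.1, 45.3, 46.4 and 42.9 in astrocytes. The lipocalin type Ptgds lay the other way without a call, at 64.6, 81.2 and 66.0 in microglia, against 99.7, 99.7, 99.7 and 99.8 in astrocytes. The small GTPase Rac2 of blood cells averaged 79.8 in microglia and 27.5 in astrocytes, while Rac1, its widely used relative, averaged 92.9 in microglia and 98.4 in astrocytes. A gene on the opposite strand covers 51.4% of Rac1, and its part was not tested. Mef2c, a myocyte enhancer factor active in microglia, averaged 99.9 in microglia and 59.2 in astrocytes, and Mef2d, of the same family, averaged 91.8 in microglia and 86.7 in astrocytes. The lactate dehydrogenase subunits leaned in opposite directions without a call, with gaps of 5.05 points for Ldha and -12.8 for Ldhb.

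Genes linked to amyotrophic lateral sclerosis had 2 of 27 tested members called higher in microglia and 2 higher in astrocytes. Their median difference was -0.612 points by counts and 5.31 with TPM ranks. The shares called by counts were near or below the 8.85% and 12.3% of all tested genes, and are no result on the list. With TPM ranks 1 was higher in microglia and 4 in astrocytes. A gene that was not called may still differ, as high ranks leave little room for a gap. Tardbp itself stood at 89.3, 92.5 and 91.0 in microglia, against 89.6, 89.5, 88.6 and 91.5 in astrocytes, and did not differ beyond the spread of libraries (1.16 ± 0.979 points, limma adjusted p = 0.308). A gene on the opposite strand covers 23.3% of Tardbp. The part of that overlap, and whether transcripts of the transgene are counted in Tardbp, were not tested. C9orf72, a regulator of lysosomes and autophagy, stood at 92.0, 89.7 and 89.7 in microglia, against 68.1, 62.9, 63.1 and 66.4 in astrocytes. Ang, a secreted ribonuclease, was the other gene higher in microglia, and its call did not hold with TPM ranks. Higher in astrocytes were Kif5a, a kinesin of axonal transport, and Ubqln2, a shuttle to the proteasome. Kif5a averaged 45.0 in microglia and 87.0 in astrocytes, and 98.7 in the oligodendrocyte lineage libraries, and Ubqln2 averaged 71.8 in microglia and 97.4 in astrocytes. Progranulin (Grn), chosen after its values were seen, had a gap of 9.98 points at 1175 CPM in microglia and 78.6 CPM in astrocytes.

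The MYC network, named in the title of the series, had 1 of 12 tested members higher in each cell type. Of all tested genes 8.85% were higher in microglia and 12.3% in astrocytes, so these counts are no result on the list. Myc stood at 68.2, 56.1 and 64.4 in microglia, against 54.0, 49.5, 53.0 and 48.5 in astrocytes. Its libraries did not overlap, but the gap was 2.09 points, and the difference was 11.7 ± 3.26 points (limma adjusted p = 0.0133). Mycn had no count in microglia and 31, 22, 36 and 95 counts in astrocytes, with a gap of -22.0 points. Max, the partner that MYC proteins need to bind DNA, overlapped, at 87.5, 82.3 and 85.3 in microglia and at 83.7, 84.3, 83.4 and 83.9 in astrocytes (limma adjusted p = 0.417). Mlxipl, the glucose-responsive factor ChREBP, was higher in microglia, at 98.4, 98.5 and 98.5 in microglia, against 51.9, 53.5, 48.3 and 50.4 in astrocytes.

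Markers of reactive astrocytes varied in how far they separated. Gfap, an intermediate filament, had 0, 0 and 9 counts in microglia, against 1098, 1272, 1006 and 3561 in astrocytes (-61.2 ± 7.45 points, limma adjusted p = 0.000194). A 0 enters that fit only as the percentile of a 0. Serpina3n, a secreted protease inhibitor, had no count in microglia and 208, 120, 148 and 475 counts in astrocytes, with a gap of -38.6 points. Vimentin (Vim), another intermediate filament, was not called, with a gap of -11.6 points. Cdkn1a, which encodes the cell cycle inhibitor p21, leaned towards microglia without a call, with a gap of 15.3 points. Of 16 cell division genes 2 were higher in microglia, the mitotic genes Birc5 and Plk1, a share near the 8.85% of all tested genes.

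Genes that all cells use included both called and uncalled members. Of 38 cytosolic ribosomal proteins 1 was called higher in microglia, Rps13, and its call did not hold with TPM ranks, while the list's median difference was 5.64 points by counts and -2.34 with TPM ranks. Of 23 housekeeping genes 3 were called higher in astrocytes, Pgk1, Gapdh and the proteasome subunit Psmb2, and of 25 oxidative phosphorylation genes 4 were higher in astrocytes, beside 12.3% of all tested genes. With TPM ranks these counts were 5 and 7, beside 13.9%. Among the oxidative phosphorylation genes called by counts, mt-Co2 and mt-Atp6 had no count in any microglia library, so these calls are uncertain. The part of read counting in them was not tested. A set of long neuronal and adhesion genes had 12 of 19 tested members higher in astrocytes by counts, beside 12.3% of all tested genes, with a median difference of -34.1 points. Transcript length moved with the scale used. By counts, the median difference over 5 equal groups of the tested genes, from short to long transcripts, was -0.94, -3.19, -3.38, -1.64 and -1.68 points, and with astrocyte TPM ranks it was -12.7, -7.93, -3.41, 2.6 and 7.94.

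The same comparison could be made at 10 months, in libraries not used above, with 4 of microglia and 2 of astrocytes. Of the 1175 genes higher in microglia at 3 months, 1044 (88.9%) were called in the same direction at 10 months, beside 1298 (9.77%) of all tested genes called that way at that age. Of the 1628 higher in astrocytes, 1069 (65.7%) were called again, beside 1561 (11.8%). None was called in the opposite direction, and 1173 and 1530 kept every library of the higher type above every library of the other. Calls that were not met at 10 months include those of Axl, Fabp5, Kif5a, Ubqln2 and Serpina3n on the astrocyte side and Plk1 and Ms4a1 on the microglial side. Ptgds, Gas6 and Cx3cl1 were called higher in astrocytes at 10 months and not at 3 months. The difference between the ages was not tested, and kit and tissue divide the cell types at both.

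**Figure D5:**
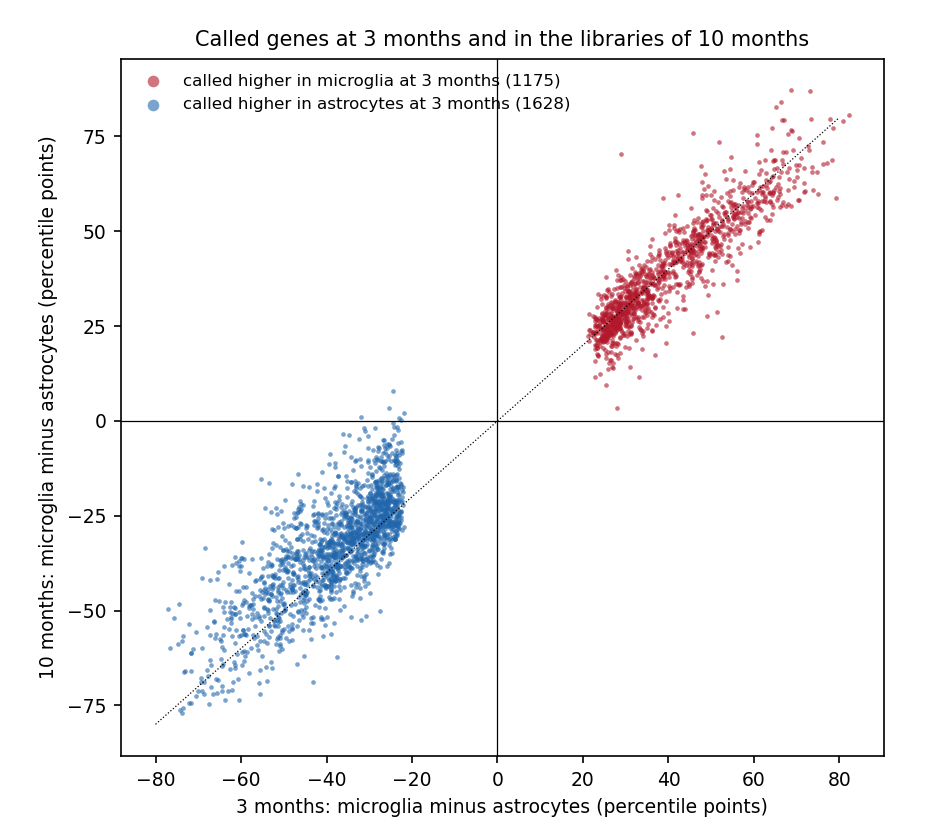
Difference of mean percentiles, microglia minus astrocytes, at 3 months (horizontal axis) and at 10 months (vertical axis) for genes called at 3 months, 1 point per gene, with a dotted line where the ages are equal. Of the genes called at 3 months, 1044 of 1175 higher in microglia and 1069 of 1628 higher in astrocytes are also called at 10 months.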

How the data were processed

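The authors deposited raw counts of reads or molecules for each gene, which were ranked here. TPM values made by the authors, which scale by transcript length, were ranked as an alternative for astrocytes. The submitters' processing notes list featureCounts 2.0.1, STAR 2.7.7a, UMI-tools 1.0.1, DESeq2 and fastp, and the builds mm10, GRCm38.p6 and GRCm39, without saying which build belongs to which table. Tables of 53700 (microglia) and 55291 (astrocyte) genes were matched by symbol to 21951 protein-coding genes of GENCODE vM21 on GRCm38, and 21466 were found exactly once in both. They held 64.1% to 69.3% of the counts in microglia libraries and 91.2% to 94.1% in astrocyte libraries. Genes with at least 10 counts in 3 or more of the 7 libraries were tested. The 3 microglia libraries alone can pass a gene, and so can 3 astrocyte libraries alone, so a gene may be tested only through the group where it is high. This limit holds for the counts of called members on either side.

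The call by gap is no test. limma 3.58.1 (R 4.3.3, trend and robust options) fitted the percentiles of the 7 libraries, two-sided, with Benjamini-Hochberg adjustment over all 13284 tested genes; ranks were computed with Python 3.11.15. Where a library had no count of a gene, the fitted value was the percentile of a 0, set by the number of undetected genes. An exact permutation test of 3 against 4 libraries cannot go below p = 0.0571. The steps were tested on simulated data. Replicate numbers did not pair the libraries, with correlations of deviations of -0.0064, 0.002 and -0.0207.

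The lists and members were chosen with earlier results of these data known. Named were the 12 genes each way with the largest gap whose call held with TPM ranks and with each library left out, up to 4 members of each list by gap, all ligands, receptors and related pairs, and 14 further genes; some of these are not reported here, and any other gene given with a value was chosen after its values were seen. Leaving out a library can only keep or widen a gap, so that part of the naming rule could not remove a gene. Overlaps between genes are from GENCODE. Among tested genes, 1661 had at least 10% of their exonic length covered by other genes on either strand, and only some of these are pointed out above.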

Additional observations from a re-analysis of the deposited data

Results flagged for a closer look

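In 25 of 172 named genes (14.5%) 1 of the 4 astrocyte libraries stood apart, its distance to the nearest other library, as a ratio to the whole range, being over Dixon's 95% critical value. Chance gives about 1 in 20 groups. In 22 of the 25 that library was replicate 4, the one with the largest total count, 20763190 against 7604222 to 10080693 in the others. The relation of depth to these values was not tested. At the low end of the scale, replicate 4 had the highest percentile where other libraries had no count, with a ratio of 0.974 for Trem2 and for Hk3 and 0.96 for Slfn8 and for Btk. For astrocyte genes replicate 4 had the lowest percentile. That held for Tril (0.843), Scara3 (0.896), Csdc2 (0.86), Lhx2 (0.899), Atp1b2 (1), Slc1a3 and Aldoc (0.833 each), Cxcl14 (0.934), Gldc (0.949), Axl (0.892) and Ldhb (0.962). It also held for Adk (0.922), Adrb1 (0.886), Ubqln2 (0.898), Gapdh (0.92), Thy1 (0.863) and Ctsc (0.872), and Rps13 (0.834) was highest there. The distances were small for most: Lhx2 was at percentile 93.2 in replicate 4, with the nearest library at 96.6. The library apart was replicate 1 for Foxj1 (0.94) and Cd86 (0.844) and replicate 3 for Itgax (0.928). Astrocyte markers took 4.52% of the counts in replicate 4 and 6.25% to 6.57% in the others. Leaving out a library can only keep or widen a gap, so no call could be lost without replicate 4, and this is no check on it.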

How the results depend on the processing

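Against 1175 genes called higher in microglia and 1628 higher in astrocytes, a gap of 10 points gave 2350 and 3064, and a gap of 30 points 615 and 696. Ranks within tested genes gave 2004 higher in microglia, which moved the share of calls on that side to 52%, beside 41.9%. Leaving out genes at 0 in every library of a group, chosen after seeing the data, gave 1146 and 927. Without single libraries the counts were 1202 to 1292 and 1671 to 1959, and 9277 to 10288 in limma. Calls by gap could only rise there, as leaving out a library cannot narrow a gap. Length correction (1138 and 1709), thinning to 4145129 counts (1145 and 1583), no filter (1225 and 1628), a filter of 50 counts (977 and 1358) and, added after seeing the data, leaving out overlapping genes (997 and 1450) stayed within 1.5 times. With the replicate block limma called 8839 genes, beside 9971. The median of the erythroid list, 5.46 points, reversed to -18.6 with TPM ranks, -3.15 with length correction, -0.348 with no filter and -1.22 at 10 months. That of purine receptors reversed to 9.36 with the filter of 50 counts and that of ribosomal proteins to -2.34 with TPM ranks, which also turned those of ALS-linked genes (-0.612) to 5.31 and heat shock chaperones (0.342) to -0.422. No named gene's gap reversed under these settings. The zero percentile, 21.7 to 23.7 in microglia, limits how low a gene can stand there.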
